A study of Agaricus blazei with 33 samples.

Results

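The genes described here are the predicted plant cell-wall degrading genes of Agaricus blazei, found by their annotated domains. A gene was a member where its description in the deposited table held any of 15 Pfam domain identifiers, which stand for 14 families. The rule found 67 of 10337 genes, on 22 of 33 contigs, in 13 of the 14 families. GH5 gave 16 genes, CBM1 15, GH3 10, AA9 9, GH88 6, GH43 and GH28 5 each, GH10 and GH11 2 each, and GH7, GH6, PL1 and CE8 1 each. No described gene carried the GH32 domain of fructan-splitting enzymes, in a table where 6116 genes had a description. A total of 7 members carried more than 1 of the families and are counted in each. Members came from the Augustus prediction (59 genes, named by an A and a number) or from StringTie (8 genes, given here by family and contig).

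Compost mushrooms feed on straw, and straw is cellulose embedded in xylan with some pectin. Cellulose is opened by the cellobiohydrolases of GH7 and GH6, which work along a chain from its ends, and by endoglucanases, of which GH5 holds many. The copper enzymes of AA9 cut the chain by oxidation and are not hydrolases in the strict sense. CBM1 is a small fungal module that binds cellulose and is joined to many different enzymes. Xylan is cut by the endoxylanases of GH10 and GH11 and trimmed by GH43, while GH3 holds the beta-glucosidases and beta-xylosidases that release single sugars. Pectin is taken apart by the polygalacturonases of GH28, the pectate lyases of PL1, the methylesterases of CE8 and the unsaturated glucuronyl hydrolases of GH88. Some fungal GH5 and GH3 enzymes act on the glucan of the fungus's own wall.

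The libraries came from strain JA, a dikaryotic cultivar grown on compost of rice straw, bagasse, cow manure and gypsum, with 3 libraries for each of 11 conditions. The conditions were mycelia taken 20 days after casing, primordia before the velum had formed, and the whole fruit body, the pileus (cap with gills) and the stipe (stalk) at the button, harvest and maturation stages. None was given a further treatment in the labels. All conditions share 1 strain, and no source used here says whether the 3 libraries of a condition came from separate cultures or fruit bodies. The p-values therefore measure the spread between these libraries, which may be technical. Values are FPKM, read fragments scaled by gene length and by a size per library, and the reads recovered from them summed to 15573864 to 21454052 per library (median 18106545).

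Some libraries did not sit with their own label. Over all genes, maturation pileus 3 correlated at 0.883 and 0.896 with the other pileus libraries of its stage and at 0.946 with maturation fruit body 2. Button stipe 1 correlated at 0.922 and 0.935 with its own group and at 0.975 with button fruit body 1. Gene A09162 holds the domain of Spo11, a protein of meiosis, which in mushrooms takes place in the gills. It read 109 and 99.5 FPKM in maturation pileus 1 and 2 but 11.3 FPKM in maturation pileus 3, and 2.71 to 4.52 FPKM in the maturation stipes. In the maturation fruit bodies it read 6.49, 38.2 and 123.5 FPKM, and of these libraries the first was most like a stipe (r = 0.981) and the third most like a pileus (r = 0.991). Where a comparison includes maturation pileus 3 or button stipe 1, the log2 value without both libraries follows the test. The share of each tissue in a sample was not measured, and in bulk tissue fewer cells of a type cannot be told apart from less RNA per cell.

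The family names describe domains, not substrates, and the label of the set holds only in part. Gene A00642 (GH5) was matched in the study's annotation to a yeast glucan glucosidase of the fungal wall, and A00960 (GH7) to the exoglucanase cel2 of Agaricus bisporus. In 6 members the gene model also held an unrelated domain, so their values can include reads of another gene. These were A00170 with an acetyltransferase domain, A04730 with a TATA-binding protein domain, A01308 with gamma-glutamyltranspeptidase and signal peptide peptidase domains, A03166 with a GTPase domain, A01349 with sybindin-like and ankyrin domains and A04584 with a transport protein domain. A total of 3 StringTie members overlapped another gene, the GH43 genes on contigs 14 and 4 and the GH5 gene on contig 24. Their reads cannot be told apart from those of the overlapping gene, because nothing states whether strand was used in counting.

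Several members lie side by side. Within 20 kb there were 8 pairs, and 4 of these joined genes of 1 family. With no gene between them lay the GH5 genes A04261 (contig 1, 3070096 to 3071886) and A04262 (contig 1, 3072534 to 3074262), the AA9 genes A00170 (contig 10, 1019251 to 1021933) and A00171 (contig 10, 1023054 to 1024203), and the GH11 genes A03443 (contig 1, 614625 to 615367) and A03444 (contig 1, 616119 to 617070). The fourth pair, the GH3 genes A05727 and A05735, had 7 genes between them. Positions are those of the deposited table, on the contigs of the authors' assembly, and span the whole gene. Reads could be split between such neighbours where their sequences are near-identical, which was not tested.

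The summed level of the 67 genes differed between stages. Their summed level was 3644 ± 488 FPKM (SD, n = 3) in mycelia and 2386 ± 130.4 FPKM in primordia. It was 2417 ± 105, 2407 ± 42.3 and 2307 ± 225 FPKM in button fruit body, pileus and stipe. The same tissues read 3529 ± 466, 2466 ± 386 and 3515 ± 249 FPKM at harvest. They read 4290.3 ± 761, 4216 ± 894 and 5189.6 ± 811 FPKM at maturation. The 3 mycelia libraries (3080.2 to 3933 FPKM) all lay above the primordia libraries (2245 to 2502 FPKM), and the 3 maturation stipes (4607 to 6116 FPKM) above the button stipes (2073 to 2523 FPKM). With reads scaled to library totals the mycelia (2801 to 3636) and primordia (2649 to 2931) libraries overlapped, while the maturation stipes (3918 to 4909) still lay above the button stipes (2311 to 2413). Under that scaling the maturation pileus sum was 3677 ± 201. The sums were not tested.

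**Figure D1:**
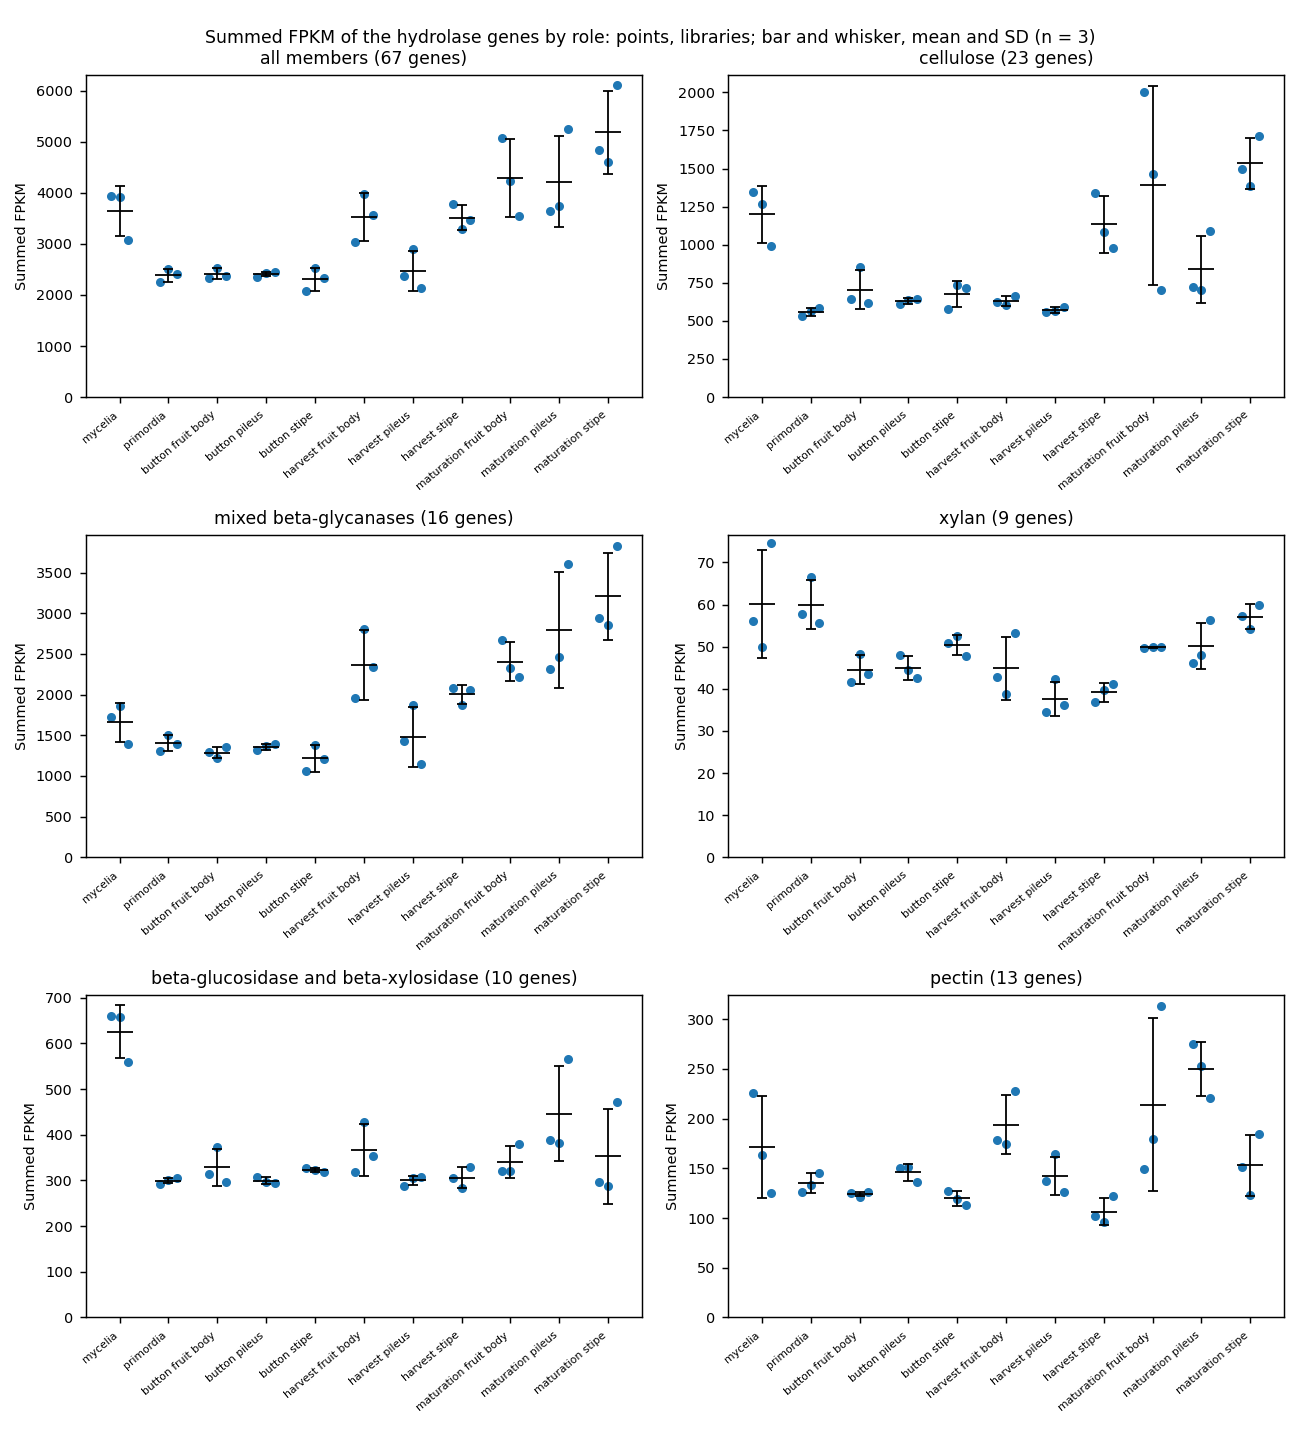
Summed FPKM (vertical axis) of all 67 genes and of the genes of each role, by condition (horizontal axis). Points are the 3 libraries, the bar and whisker their mean and SD, and the 4 genes with both CBM1 and GH5 domains count under cellulose and under mixed beta-glycanases. The GH3 genes stood highest in mycelia (626 ± 58.4 FPKM), the GH5 genes in maturation stipes (3207 ± 539 FPKM).

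A handful of genes made up much of this level. In mycelia the AA9 gene A00170 led with a mean of 834 FPKM, 22.9% of the sum. In maturation pileus the GH5 gene A04262 led with 1649.7 FPKM, 39.1% of the sum, and in maturation stipe with 1567 FPKM, 30.2%. The pileus mean was raised by maturation pileus 3, which stood apart, at 2318 FPKM against 1329 and 1302 FPKM in libraries 1 and 2. Only 14 members reached a mean of 100 FPKM in any condition, 17 stayed below 5 FPKM in all 11, and 2 below 1 FPKM.

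The roles differed in their sums. The cellulose group summed to 1200.0 ± 187 FPKM in mycelia, 559 ± 25.6 FPKM in primordia and 1534 ± 167 FPKM in maturation stipes. Much of this was 1 gene, A00170, whose model also holds an acetyltransferase domain. It had a mean of 834 FPKM in mycelia and read 201, 251 and 287 FPKM in primordia and 763, 691 and 870 FPKM in maturation stipes. The sum is therefore not a change of the cellulose genes as a group. Its rise from primordia to maturation stipes was not that of A00170 alone. A00171 (AA9) read 91.0, 80.7 and 78.5 FPKM in primordia and 312, 294 and 430 FPKM in maturation stipes. The StringTie AA9 gene on contig 8 was higher there too, while the AA9 genes A08438 and A10014 were lower. The xylan group stayed small throughout, with means from 37.6 ± 4.12 FPKM in harvest pileus to 60.1 ± 12.8 FPKM in mycelia. The pectin group ran from 106 ± 13.7 FPKM in harvest stipes to 249.8 ± 27.2 FPKM in maturation pileus. The GH5 group, at 1216 ± 162 FPKM in button stipes and 3207 ± 539 FPKM in maturation stipes, held the largest sum of the 5 groups in every condition.

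**Figure D2:**
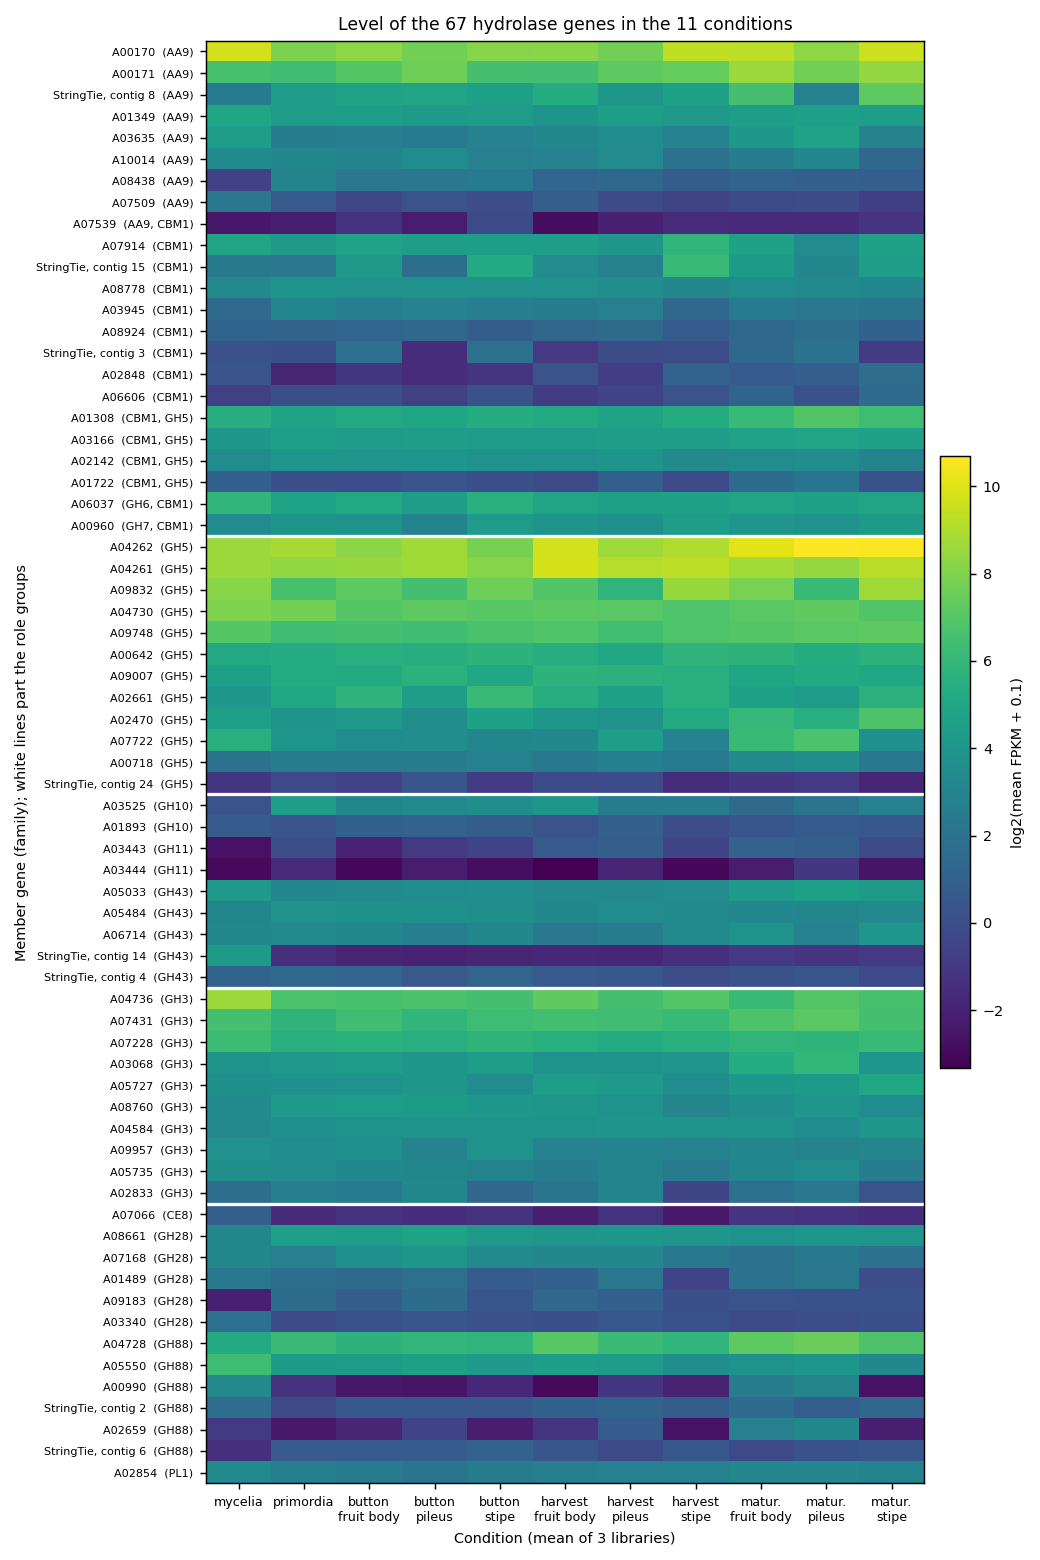
Level of each of the 67 genes (rows, with the family) in each of the 11 conditions (columns), as log2 of the mean FPKM of 3 libraries plus 0.1. White lines part the groups cellulose, mixed beta-glycanases, xylan, beta-glucosidase and beta-xylosidase, and pectin, and a gene with both CBM1 and GH5 is drawn once, under cellulose. A04262 is brightest in maturation pileus and stipe (means of 1649.7 and 1567 FPKM).

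Among the 66 members that reached 0.5 FPKM somewhere, 16 had their highest mean in mycelia, 14 in maturation pileus, 9 in maturation stipe, and 7 each in primordia and button pileus. Of all 9779 genes at that level, 23.2% peaked in mycelia, 13.3% in maturation pileus and 15.3% in maturation stipe. The members did not gather in 1 stage. Some varied little, and the smallest ratio between highest and lowest condition mean was 1.59, in A05484 (GH43), followed by 1.64 in A03166 (CBM1 and GH5). Over 9 comparisons 48 members were called at least once and 19 never, among them the only PL1 gene, A02854, and the GH10 gene A01893. The share of all genes called at least once was not computed, so these counts are not a result about the members. The uncalled 19 include A03444 (GH11) and A07539 (AA9 with CBM1), whose levels were too low for any test.

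The first comparison asked what changes as feeding mycelium forms primordia. Calls needed a limma adjusted p below 0.05 over all genes tested and an absolute log2 change of 1 or more, on log2(FPKM + 0.1), and only genes with a mean of 0.5 FPKM or more in the fit were tested. In primordia 8 of the 63 members tested were higher and 13 lower than in mycelia. Of these, 2 higher and 4 lower members passed that level only through the group where they were high. The filter thus favoured a difference in them without forcing a call, and for such genes no p is given here or below. A further member that passed in this way, the StringTie GH5 gene on contig 24, was not called. The calls together make 33.3% of the members tested, against a background of 37.5% over all 9485 genes tested (15.1% higher and 22.5% lower). The median log2 fold change was -0.14 for the members and -0.04 for all genes. By role, the cellulose group had 3 higher and 4 lower of 22 tested, the GH5 group 0 and 2 of 16, xylan 1 and 1 of 7, GH3 1 and 1 of 10, and pectin 3 and 5 of 12. The direction of the balance depended on the scaling. Reads scaled to library totals moved the median of all genes to 0.31 and gave 17 higher and 12 lower members. These calls were 45.3% of the members tested, against 40.9% of all genes under that scaling.

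The lowest log2 value was that of the StringTie GH43 gene on contig 14 (303213 to 306921), in a family of xylan-trimming enzymes. It read 18.3, 13 and 27.2 FPKM in the mycelia libraries and 0.254, 0.218 and 0.335 in the primordia libraries (log2 fold change -5.68, SE 0.3). No library of the other 10 conditions exceeded 0.695 FPKM. The mycelia mean was 19.5 FPKM, below the median of 24.0 FPKM over all genes there. This gene passed the level for a test only through mycelia. It overlaps another gene, and its reads cannot be told apart from those of that gene.

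Among the cellulose genes A00170 (AA9) read 955, 895 and 651 FPKM in mycelia and 201, 251 and 287 in primordia, without overlap (log2 fold change -1.76, SE 0.2, adjusted p = 0.000184). The only GH6 gene, A06037 (contig 2, 1599523 to 1601165), read 72, 57 and 51.3 FPKM in mycelia and 27.9, 27.7 and 29.3 in primordia (log2 fold change -1.07, SE 0.14, adjusted p = 0.000388). That call was lost in 3 of 17 alternative settings, to -0.72 under library totals. The only GH7 gene, A00960, read 10.5, 10.4 and 12.1 FPKM and 15.5, 17.8 and 12.9 and was not called (log2 fold change 0.48, SE 0.15, adjusted p = 0.0268). Of the 2 cellobiohydrolase families, then, GH6 was lower in all primordia libraries and GH7 higher in all of them but by less than the limit.

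The GH3 gene A04736 (contig 21, 655879 to 660212), the most abundant of its family, fell from 376, 409.6 and 347 FPKM in mycelia to 101, 97.3 and 113 in primordia (log2 fold change -1.86, SE 0.12, adjusted p = 1.32e-05). It made up 60.3% of the GH3 sum in mycelia and 34.8% in primordia. The GH5 gene A09832 fell from 275, 339 and 269 FPKM to 97.6, 87.7 and 104 (log2 fold change -1.61, SE 0.13, adjusted p = 4.05e-05). None of the groups overlapped in these genes. A07722, also GH5, fell from 56.8, 53.4 and 28.8 FPKM to 10.9, 17.2 and 20.4 (log2 fold change -1.5, SE 0.32, adjusted p = 0.004). The most abundant GH5 gene, A04262, read 373, 450.1 and 339 FPKM and 475, 548 and 349.9 and overlapped (log2 fold change 0.23, SE 0.2, adjusted p = 0.337).

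Of the 12 pectin genes tested 5 were lower and 3 higher, and 2 of the lower and 2 of the higher genes passed the level for a test through 1 group alone. The GH88 gene A05550 fell from 121, 82.7 and 43.2 FPKM in mycelia to 22, 18.2 and 18.4 in primordia (log2 fold change -1.95, SE 0.34, adjusted p = 0.00148). The only CE8 gene, A07066, read 2.22, 1.31 and 1.81 FPKM and 0.373, 0.183 and 0.148 (log2 fold change -2.52, SE 0.38). A00990 (GH88) spread widely in mycelia, where library 1 was far above the others. It read 21.8, 4.41 and 2.91 FPKM there and 0.346, 0.419 and 0.164 in primordia (log2 fold change -4.08, SE 0.71).

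Other members had higher levels in primordia. The endoxylanase gene A03525 (contig 1, 972116 to 973352; GH10) read 0.855, 1.44 and 1.03 FPKM in mycelia and 20.1, 25.5 and 21.3 in primordia (log2 fold change 4.24, SE 0.22, adjusted p = 5.01e-06). The second GH10 gene, A01893, read 1.43, 1.54 and 1.53 FPKM and 1.11, 0.913 and 1.5 and was not called (log2 fold change -0.35, SE 0.26, adjusted p = 0.256). Only 1 of the 2 endoxylanase genes of this family was therefore called. The polygalacturonase gene A09183 (GH28) read 0, 0.109 and 0.293 FPKM and 3.87, 2.31 and 2.84 (log2 fold change 3.92, SE 0.52), and its mycelial level rested on 7 reads. The most abundant GH28 gene, A08661, rose from 9.56, 7.84 and 8.56 FPKM to 25.4, 25.1 and 21.7 (log2 fold change 1.47, SE 0.13, adjusted p = 6.54e-05).

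AA9 held members that moved in both directions, with 2 higher and 2 lower of 8 tested. A08438 read 0.644, 0.502 and 0.542 FPKM in mycelia and 6.35, 6.82 and 10.1 in primordia (log2 fold change 3.54, SE 0.25, adjusted p = 1.89e-05). The StringTie AA9 gene on contig 8 (1154946 to 1157741) read 5.42, 7.01 and 3.91 FPKM and 26.3, 21.1 and 17.8 (log2 fold change 2.0, SE 0.24, adjusted p = 0.000244). Both were higher in every primordia library, while A00170 and A03635 were lower.

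**Figure D3:**
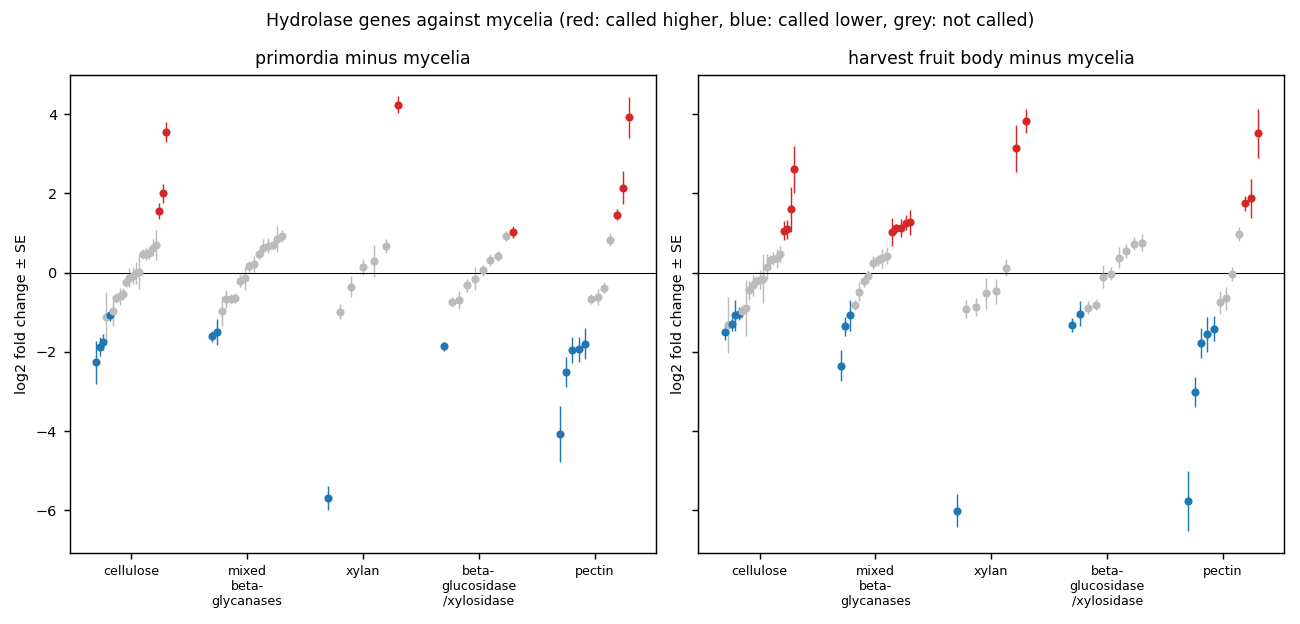
log2 fold change (vertical axis) with its SE for each tested member, by role (horizontal axis), for primordia against mycelia and harvest fruit body against mycelia. Red points were called higher, blue points lower and grey points not, with 8 higher and 13 lower on the left and 14 and 14 on the right.

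Between primordia and the button fruit body 0 of 60 tested members were called, against a background of 0.0324%, or 3 of 9271 genes (0.0216% higher and 0.0108% lower). With voom on the recovered reads 0 members were called as well. The button fruit body libraries did not sit together. Without button fruit body 2, which was most like a button stipe (r = 0.982), 3 of 60 members were called, when 379 of 9252 genes were (4.1%).

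Harvest fruit bodies were compared with the same mycelia libraries, so the calls of this and the primordia comparison are not independent. Of 63 members tested 14 were higher and 14 lower, or 44.4% against a background of 39.2% (14.7% higher and 24.4% lower). Of these, 4 higher and 3 lower members passed the level for a test only through the group where they were high. The median was -0.16 for the members and -0.05 for all genes. Quantile normalization moved the median of all genes to 0.21 and gave 19 higher and 9 lower members. These calls were 44.4% of the members tested, against 40.8% of all genes in that setting. Side by side, 6 members were higher than mycelia in both primordia and harvest fruit body and 11 were lower in both. These comparisons share the mycelia libraries. The share of all genes called the same way in both was not computed, so these counts have no background. By role, the cellulose group had 4 higher and 4 lower of 21 tested, GH5 5 and 3 of 16, xylan 2 and 1 of 8, GH3 0 and 2 of 10, and pectin 3 and 5 of 12.

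The 5 GH5 genes higher at harvest included the neighbouring pair. A04262 read 373, 450.1 and 339 FPKM in mycelia and 638, 993 and 952 in harvest fruit bodies (log2 fold change 1.13, SE 0.22, adjusted p = 0.0041). A04261 read 454, 451 and 226 FPKM and 751, 1119 and 783 (log2 fold change 1.28, SE 0.32, adjusted p = 0.0109). In both genes every harvest library lay above every mycelia library.

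GH88, a family of pectin breakdown, gave calls in both directions. Its most abundant gene, A04728 (contig 21, 611989 to 613532), rose from 37, 37.8 and 38.5 FPKM in mycelia to 118, 106 and 167 in harvest fruit bodies (log2 fold change 1.75, SE 0.19, adjusted p = 0.000289). A05550 was lower at harvest, at 21.1, 28.9 and 17.7 FPKM (log2 fold change -1.77, SE 0.38, adjusted p = 0.00581). A00990 had 573 reads in the mycelia libraries, 436 of them in library 1, and 2 in the harvest fruit bodies. The ratio was 321 after scaling and rests on those 2 reads. This gene passed the level for a test only through mycelia, so no interval is given.

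The GH10 gene A03525 and the GH28 gene A09183, both higher in primordia, were higher at harvest too, while A08661 (GH28) was not called. A03525 (GH10) read 14.2, 13.8 and 23.8 FPKM in harvest fruit bodies (log2 fold change 3.83, SE 0.3, adjusted p = 8.56e-05). A09183 (GH28) read 2.39, 1.24 and 3.57 FPKM (log2 fold change 3.52, SE 0.63). The GH11 endoxylanase gene A03443 had 2 reads in the mycelia libraries together and 54 in the harvest fruit bodies, a ratio of 24.1 after scaling. It passed the level for a test only through the harvest fruit bodies, and no interval is given. These levels stayed small beside those of GH5 and AA9.

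Of the 13 genes that were lower in primordia, 5 of the 11 that were lower at harvest as well are given here. The StringTie GH43 gene on contig 14 read 0.281, 0.0806 and 0.259 FPKM (log2 fold change -6.01, SE 0.41). A07066 (CE8) read 0.155, 0.118 and 0.117 FPKM (log2 fold change -3.0, SE 0.37). Among the abundant genes A00170 (AA9) read 290.0, 308 and 274 FPKM (log2 fold change -1.5, SE 0.19, adjusted p = 0.000569). These 3 genes were below every mycelia library, as were the 2 that follow. A04736 (GH3) read 123, 178 and 154 FPKM (log2 fold change -1.33, SE 0.17, adjusted p = 0.000681). A06037 (GH6) read 27.2, 31.8 and 28.2 FPKM (log2 fold change -1.03, SE 0.17, adjusted p = 0.00167), a call lost in 4 of 17 alternative settings.

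**Figure D4:**
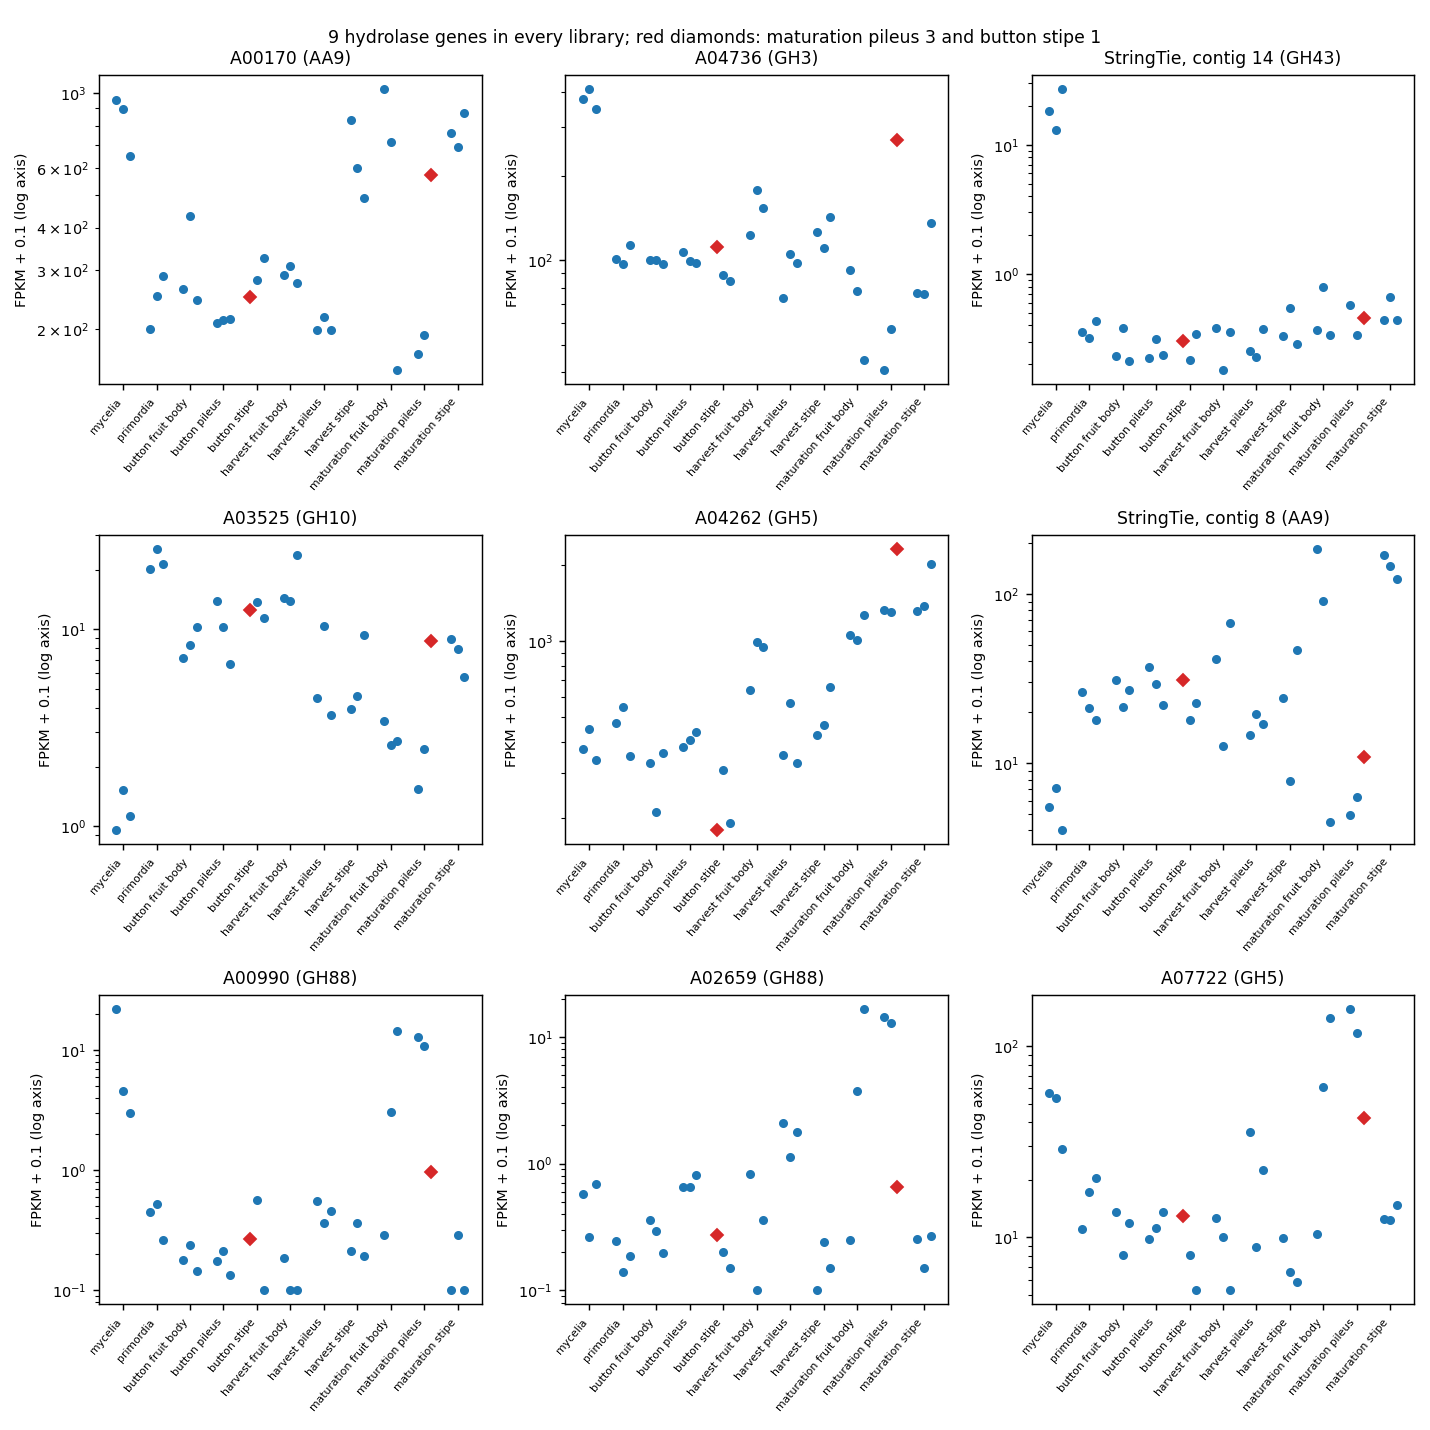
FPKM plus 0.1 on a log axis (vertical) in each of the 33 libraries, by condition (horizontal), for 9 members. Blue points are libraries, and the red diamonds are maturation pileus 3 and button stipe 1. A00990 and A02659 read 10.7 to 14.3 FPKM in maturation pileus 1 and 2, with the diamond of that group at 0.865 and 0.55 FPKM.

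A fit of 18 libraries, with pileus and stipe of all 3 stages, asked how the members differ between cap and stalk. In buttons 3 of 63 members were higher in the pileus and 6 lower, or 14.3% against a background of 17.9% (7.91% higher and 9.96% lower). At harvest 8 were higher and 6 lower, or 22.2% against 31.6% (16.7% higher and 14.9% lower). At maturation 10 were higher and 9 lower, or 30.2% against 25.1% (13.6% higher and 11.5% lower). Of the higher members 1, 2 and 2 at the 3 stages passed the level for a test through 1 group alone. The median log2 difference was 0.01, 0.22 and 0.07 for the members at the 3 stages and 0.01 for all genes at each.

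These counts moved with the scaling and with the libraries that stood apart. Library totals moved the median of all genes to 0.19 in buttons and 0.37 at harvest, and gave 5 higher and 4 lower members in buttons and 16 and 6 at harvest. Those calls were 14.3% of the members in buttons and 34.9% at harvest, against 18.4% and 34.7% of all genes. Quantile normalization gave 5 and 8 at harvest, or 20.6% of the members against 31.0% of all genes. Without the 2 libraries that stood apart the counts were 6 and 8 in buttons, 9 and 6 at harvest and 15 and 11 at maturation, when 2751, 3175 and 3589 of 9341 genes were called. With all libraries, 3 members were called in 1 direction at all 3 stages. These were A02833 (GH3), higher in the pileus, and A02470 (GH5) and the StringTie CBM1 gene on contig 15, both lower. The share of all genes called in this way was not computed.

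**Figure D5:**
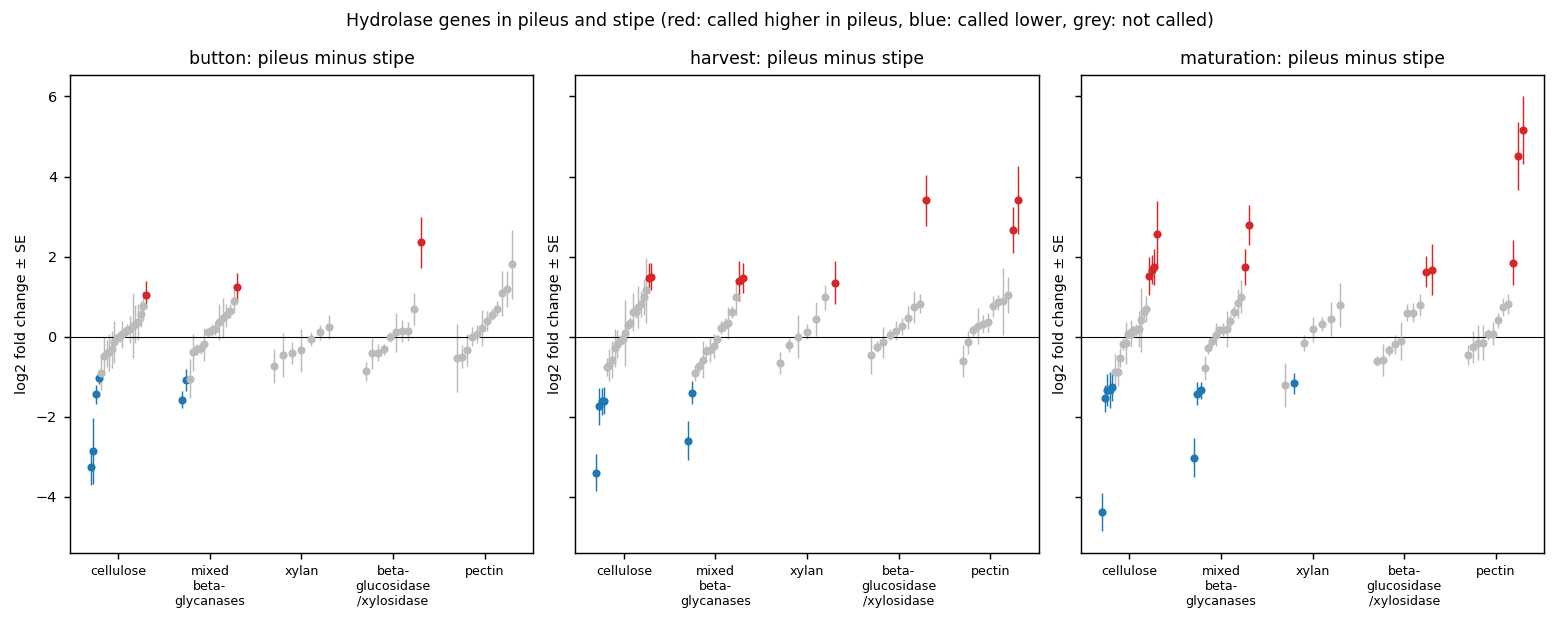
log2 fold change of pileus against stipe (vertical axis) with its SE for each tested member, by role (horizontal axis), at button, harvest and maturation. Red was called higher in the pileus, blue lower and grey not called, and the called members number 9, 14 and 19. In the pectin group only A01489 and A02659 were called at harvest, and only these and A00990 at maturation, all higher. Over all genes 16.7% were called higher at harvest and 13.6% at maturation. A00990 and A02659 reached the level for a test through the maturation pileus alone.

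Genes of cellulose binding and breakdown were called in both directions. Those higher in the pileus were A00171 in buttons and A03945 and A10014 at harvest. At maturation they were A10014, A01722, A03635 and the StringTie CBM1 gene on contig 3. Several others were lower, among them A07914 at harvest and maturation, A06606 at maturation and those that follow. The StringTie CBM1 gene on contig 15 (358469 to 360303), whose model showed no other domain, read 4.09, 3.47 and 2.09 FPKM in button pileus and 11.4, 63.3 and 39.5 in button stipe (log2 fold change -3.26, SE 0.46, adjusted p = 0.000264, and -3.97 without both libraries). At harvest it read 7.81, 8.24 and 4.27 FPKM in the pileus and 58.3, 70.3 and 81.9 in the stipe (log2 fold change -3.4, SE 0.46, adjusted p = 8.78e-05). At maturation it read 9.21, 8.07 and 9.06 FPKM and 21.9, 23.3 and 21.8 (log2 fold change -1.34, SE 0.46, adjusted p = 0.0291, and -1.36 without both libraries). The groups did not overlap at any stage, and the lowest button stipe value was that of library 1, which stood apart. Button fruit body 2, the library most like a stipe, read 42.1 FPKM for this gene against 9.75 and 4.98 FPKM in the other button fruit bodies.

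Both cellobiohydrolase genes were lower in the button pileus. A00960 (GH7) read 10.6, 6.79 and 6.39 FPKM in the pileus and 20.9, 24.1 and 19 in the stipe (log2 fold change -1.44, SE 0.23, adjusted p = 0.000633, and -1.46 without both libraries). A06037 (GH6) read 23.9, 21.8 and 21.7 FPKM and 38.2, 54.3 and 46.2 (log2 fold change -1.02, SE 0.15, adjusted p = 0.000347, and -1.15 without both libraries). The call of A06037 was lost in 4 of 30 alternative settings. Neither was called at harvest or maturation.

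The GH5 gene A09832 (contig 9, 633069 to 635275) was lower in the pileus at the later stages. It read 55, 57.4 and 60.8 FPKM in harvest pileus and 531, 330.3 and 243 in harvest stipe (log2 fold change -2.6, SE 0.49, adjusted p = 0.000805). At maturation it read 27.9, 26.7 and 164 FPKM in the pileus and 392, 379 and 449 in the stipe (log2 fold change -3.03, SE 0.49, adjusted p = 0.000386, and -3.89 without both libraries). The high pileus value was that of library 3. A00170 (AA9) had the same order, with 199, 218 and 199 FPKM in pileus and 831, 599 and 488 in stipe at harvest (log2 fold change -1.61, SE 0.34, adjusted p = 0.00148). At maturation it read 169, 193 and 573 FPKM and 763, 691 and 870.4 (log2 fold change -1.54, SE 0.34, adjusted p = 0.0026, and -2.09 without both libraries).

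Further genes were lower in the pileus at 1 stage or more. A02661 (GH5) read 27, 22.6 and 20.2 FPKM in button pileus and 48.9, 87 and 77.5 in button stipe (log2 fold change -1.58, SE 0.21, adjusted p = 0.000178, and -1.82 without both libraries). A02848, which joins CBM1 to an esterase domain, read 0.437, 0.62 and 0.472 FPKM in harvest pileus and 2.12, 2.54 and 1.3 in harvest stipe (log2 fold change -1.74, SE 0.46, adjusted p = 0.00641). Each was lower in every pileus library than in every stipe library of the stage.

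Fewer genes were higher in the button pileus. The GH3 gene A02833 (contig 18, 88959 to 92147) read 8.01, 8.71 and 9.51 FPKM in button pileus and 5.21, 0.723 and 1.06 in button stipe (log2 fold change 2.36, SE 0.64, adjusted p = 0.0128, and 3.17 without both libraries). Button stipe 1 stood far above its group. At harvest the gene read 7.48, 6.28 and 9.79 FPKM in the pileus and 0.425, 0.739 and 0.808 in the stipe (log2 fold change 3.41, SE 0.64, adjusted p = 0.000758). The AA9 gene A00171 read 159, 200.3 and 218 FPKM in button pileus and 78.6, 111 and 88.8 in button stipe (log2 fold change 1.05, SE 0.34, adjusted p = 0.0311, and 0.94 without both libraries). Without both libraries it fell short of the limit of 1. The StringTie GH5 gene on contig 24, which overlaps another gene, read 1.16, 1.43 and 1.02 FPKM and 0.451, 0.432 and 0.467 (log2 fold change 1.23, SE 0.36, and 1.23 without both libraries).

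Among the pectin genes, 2 of GH88 were nearly silent in the stipe and high in most maturation pileus libraries. A00990 (contig 12, 830555 to 831868) read 12.6, 10.7 and 0.865 FPKM in the pileus and 0, 0.19 and 0 in the stipe, where it had 4 reads in all (log2 fold change 5.16, SE 0.84, and 6.36 without both libraries). A02659 (contig 17, 887883 to 889231) read 14.3, 12.8 and 0.55 FPKM and 0.157, 0.0504 and 0.168 (log2 fold change 4.51, SE 0.85, and 5.97 without both libraries). In both genes maturation pileus 3 was far below the other pileus libraries but above the stipes. Both genes, and the StringTie GH5 gene on contig 24, reached the level for a test in this fit through 1 group alone, which was the maturation pileus for both GH88 genes and the button pileus for the GH5 gene.

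At harvest only A02659 and A01489 of the pectin genes were called higher in the pileus, where 16.7% of all genes were. Every pileus library of A02659 lay above every stipe library, at 2.0, 1.04 and 1.68 FPKM against 0, 0.139 and 0.0493 (log2 fold change 3.41, SE 0.85). A00990 read 0.452, 0.267 and 0.362 FPKM in the pileus and 0.114, 0.262 and 0.093 in the stipe and was not called (log2 fold change 0.88, SE 0.84). The GH28 gene A01489, a polygalacturonase, was also higher in the harvest pileus, at 4.62, 3.3 and 5.18 FPKM against 0.615, 0.766 and 0.438 (log2 fold change 2.66, SE 0.56, adjusted p = 0.00162). In the whole fruit bodies of maturation A00990 read 0.19, 2.97 and 14.3 FPKM and A02659 0.151, 3.67 and 16.5 FPKM. Both were highest in library 3, where the Spo11 domain gene was highest too.

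At maturation GH5, GH3 and AA9 each had genes that were higher in the pileus. The GH5 gene A07722 (contig 5, 807710 to 810075) read 156, 116 and 41.8 FPKM in the pileus and 12.4, 12.3 and 14.6 in the stipe (log2 fold change 2.79, SE 0.5, adjusted p = 0.000728, and 3.36 without both libraries). The GH3 gene A03068 read 93.4, 73.3 and 19.5 FPKM and 15.2, 16.3 and 18.3 (log2 fold change 1.62, SE 0.38, adjusted p = 0.00403, and 2.32 without both libraries). Every pileus library lay above every stipe library in these 2 genes, with maturation pileus 3 the lowest of its group. The AA9 genes A03635 and A10014 were called higher too, at 1.51 and 1.67 on the log2 scale (2.29 and 2.16 without both libraries), and in A03635 the libraries overlapped.

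In the opposite direction the StringTie AA9 gene on contig 8 read 4.83, 6.17 and 10.8 FPKM in the maturation pileus and 168, 147 and 122 in the stipe (log2 fold change -4.38, SE 0.48, adjusted p = 2.45e-05, and -4.7 without both libraries). In the maturation fruit bodies it read 184, 91 and 4.38 FPKM, lowest in the library most like a pileus. AA9 genes thus lay on both sides of this comparison.

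The change of the pileus to stipe difference from button to maturation was tested as its own contrast. It was called for 7 of 63 members, or 11.1% against a background of 9.38% (5.90% towards the pileus and 3.48% towards the stipe). Of the 7, 5 changed towards the pileus and 2 towards the stipe, and the median was 0.10 for the members. The number depended on maturation pileus 3, without which 22 members were called, when 2202 of 9348 genes were (23.6%). Without both libraries that stood apart it was 23, with 16 towards the pileus and 7 towards the stipe, when 2489 of 9341 genes were called (26.6%). Quantile normalization gave 3 and 5, and library totals 2 and 6, and the shares of all genes under these scalings are not given here.

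The highest value was that of A00990 (GH88), at 5.7, SE 1.19, and 6.85 without both libraries. It reached the level for a test through the maturation pileus alone, as did A02659, which was not called here. The StringTie CBM1 gene on contig 3 (1268156 to 1269471) read 0.144, 0.217 and 0.359 FPKM in button pileus and 0.44, 6.59 and 3.68 in button stipe (log2 fold change -2.86, SE 0.82, adjusted p = 0.0172, and -3.94 without both libraries). At maturation it read 5.12, 4.43 and 1.23 FPKM and 0.286, 0.414 and 0.664 (log2 fold change 2.57, SE 0.82, adjusted p = 0.022, and 3.19 without both libraries). This gene turned from lower to higher in the pileus, and the log2 change was 5.43, SE 1.16, adjusted p = 0.00884, and 7.13 without both libraries. A07722 changed towards the pileus (2.32, SE 0.71, adjusted p = 0.0457, and 2.56 without both libraries), a call that was lost in 20 of 30 alternative settings. The GH3 genes A03068 (2.04, SE 0.54, adjusted p = 0.0237, and 2.77 without both libraries) and A07431 (1.0, SE 0.3, adjusted p = 0.0412, and 1.14 without both libraries) also changed towards the pileus. The StringTie AA9 gene on contig 8 changed towards the stipe (-4.69, SE 0.67, adjusted p = 0.00105, and -5.22 without both libraries). A00171, also AA9, did so too (-1.93, SE 0.48, adjusted p = 0.0184, and -1.27 without both libraries).

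Within each tissue, maturation was compared with the button stage to follow the members as the fruit body opens. In the stipe 9 of 63 members rose and 6 fell, or 23.8% against a background of 26.2% (12.4% higher and 13.8% lower). In the pileus 16 rose and 7 fell, or 36.5% against 26.2% (13.7% higher and 12.5% lower), and 2 of the higher and 1 of the lower members passed the level for a test through 1 group alone. The medians were -0.06 and 0.03 for the members and -0.01 for all genes in both tissues. Library totals moved the median of all genes to -0.31 in the stipe and -0.39 in the pileus, and gave 7 higher and 10 lower members in the stipe and 11 and 11 in the pileus. Quantile normalization gave 10 and 4 in the stipe. Without the libraries that stood apart 9 members rose and 4 fell in the stipe, and 17 and 8 in the pileus. The shares of all genes called in these alternatives are not given here, so these counts have no background.

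The GH5 gene A04262 rose in both tissues. In the stipe it read 179, 309 and 192 FPKM in buttons and 1319, 1371 and 2010.3 at maturation (log2 fold change 2.81, SE 0.29, adjusted p = 8.46e-06, and 2.66 without both libraries). In the pileus it read 381, 407 and 438 FPKM and 1329, 1302 and 2318 (log2 fold change 1.96, SE 0.29, adjusted p = 0.000117, and 1.69 without both libraries). Its neighbour A04261 rose in the stipe, from 208, 327 and 327 FPKM to 606, 505 and 660.4 (log2 fold change 1.06, SE 0.29, adjusted p = 0.00958, and 0.84 without both libraries). That call was lost without both libraries. In the pileus A04261 read 382, 417 and 420.0 FPKM and 257, 491 and 317 and was not called (log2 fold change -0.25, SE 0.29, adjusted p = 0.514, and -0.19 without both libraries).

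In the stipe 3 of the 8 AA9 genes tested rose and 2 fell, against 12.4% higher and 13.8% lower over all genes. A00170 rose from 249, 280.4 and 324 FPKM in buttons to 763, 691 and 870.4 at maturation (log2 fold change 1.45, SE 0.34, adjusted p = 0.00325, and 1.36 without both libraries). A00171 rose from 78.6, 111 and 88.8 FPKM to 312, 294 and 430.4 (log2 fold change 1.89, SE 0.34, adjusted p = 0.000589, and 1.77 without both libraries). The StringTie AA9 gene on contig 8 rose from 31, 17.8 and 22.4 FPKM to 168, 147 and 122 (log2 fold change 2.64, SE 0.48, adjusted p = 0.000558, and 2.85 without both libraries). In these 3 genes the groups did not overlap. A08438 fell from 7.52, 3.86 and 3.97 FPKM to 2.06, 1.61 and 1.62 (log2 fold change -1.43, SE 0.52, adjusted p = 0.0387, and -1.12 without both libraries), a call lost without both libraries.

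Members of other families changed in the stipe too. The CBM1 gene A02848 rose from 0.192, 0.545 and 0.27 FPKM in buttons to 1.89, 3.53 and 4.11 at maturation (log2 fold change 2.92, SE 0.46, adjusted p = 0.000209, and 2.67 without both libraries). The GH28 gene A07168 fell from 11.6, 9.89 and 9.53 FPKM to 3.75, 3.21 and 3.98 (log2 fold change -1.48, SE 0.19, adjusted p = 3.46e-05, and -1.39 without both libraries). The StringTie GH43 gene on contig 4, which overlaps another gene, fell from 2.35, 2.37 and 2.19 FPKM to 0.64, 0.927 and 0.772 (log2 fold change -1.46, SE 0.42, adjusted p = 0.0123, and -1.45 without both libraries). None of these groups overlapped.

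In the pileus the rises lay in all 5 role groups. A07722 (GH5) rose from 9.65, 11.1 and 13.5 FPKM in buttons to 156, 116 and 41.8 at maturation (log2 fold change 3.0, SE 0.5, adjusted p = 0.00027, and 3.56 without both libraries). A00990 (GH88) read 0.0746, 0.112 and 0.0338 FPKM and 12.6, 10.7 and 0.865 (log2 fold change 4.9, SE 0.84, and 6.11 without both libraries). A04728, the most abundant GH88 gene, rose from 67.3, 67.7 and 49.8 FPKM to 183, 168 and 179 (log2 fold change 1.53, SE 0.23, adjusted p = 0.000107, and 1.52 without both libraries). Maturation pileus 3 was near the other libraries of its group in A04728, unlike in A00990. The GH43 gene A05033 rose from 11.2, 10.6 and 11.1 FPKM to 23.1, 21.3 and 30.1 (log2 fold change 1.16, SE 0.17, adjusted p = 9.45e-05, and 1.01 without both libraries) and was then the most abundant xylan gene, with 49.5% of that group's sum.

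In 2 genes the result in the pileus turned on maturation pileus 3. A01308 (CBM1 and GH5) read 30.6, 31.1 and 30.8 FPKM in buttons and 48.8, 51.8 and 256 at maturation (log2 fold change 1.49, SE 0.46, adjusted p = 0.0163, and 0.7 without both libraries), so the change was below the limit without them. A04736 (GH3) read 108, 99.2 and 97.7 FPKM and 40.6, 57.1 and 268 (log2 fold change -0.25, SE 0.48, adjusted p = 0.7, and -1.07 without both libraries). It was called lower without them (adjusted p = 0.00163).

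Falls in the pileus were fewer. The StringTie AA9 gene on contig 8 fell from 36.8, 29.3 and 21.8 FPKM in buttons to 4.83, 6.17 and 10.8 at maturation (log2 fold change -2.05, SE 0.48, adjusted p = 0.00295, and -2.37 without both libraries). A07168 (GH28) fell from 16.9, 16.3 and 17 FPKM to 4.3, 4.24 and 6.3 (log2 fold change -1.76, SE 0.19, adjusted p = 5.57e-06, and -1.95 without both libraries). A09183, also GH28, fell from 3.12, 1.99 and 3.71 FPKM to 0.808, 1.76 and 0.543 (log2 fold change -1.52, SE 0.45, adjusted p = 0.0129, and -1.18 without both libraries). Of the 5 polygalacturonase genes tested 0 rose and 2 fell, and of the 6 GH88 genes 3 were higher and 0 lower. The shares over all genes were 13.7% higher and 12.5% lower. Among the 3 higher GH88 genes, A00990 and A02659 reached the level for a test through the maturation pileus alone. The difference between these families was not tested.

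The GH11, PL1 and CE8 genes stayed low. The GH11 gene A03444 had 14 reads in the maturation pileus libraries together, its highest mean, and 0 reads in the harvest fruit bodies, where a count of up to 3 reads could have been missed. A03443 of the same family was called higher in the harvest pileus, at 2.41, 1.66 and 1.28 FPKM against 0.507, 1.09 and 0.413 in the stipe (log2 fold change 1.35, SE 0.54, adjusted p = 0.0498). That call was lost in 18 of 29 alternative settings. The pectate lyase gene A02854 (PL1) read 10.1, 10.4 and 9.68 FPKM in mycelia and 3.6, 4.31 and 4.72 in button pileus and was never called. The methylesterase gene A07066 (CE8) did not exceed 0.692 FPKM outside mycelia.

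Other genes of plant cell-wall breakdown, 29 in all with 28 tested, were taken from families outside the rule such as GH12, GH27, GH51, the expansin-like proteins and cutinases. In primordia 2 of them were higher and 10 lower than in mycelia, and in harvest fruit bodies 2 were higher and 10 lower, or 42.9% in each, against backgrounds of 37.5% and 39.2%. Between pileus and stipe 3 were higher and 5 lower in buttons, 7 and 4 at harvest and 7 and 6 at maturation, against 17.9%, 31.6% and 25.1% called over all genes. From button to maturation 8 rose and 3 fell in the stipe, and 8 and 3 in the pileus, against 26.2% called in each.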

How the data were processed

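RNA of 33 libraries (11 conditions, 3 each) was sequenced on an Illumina platform. The authors aligned reads with Hisat2, predicted further genes with StringTie and counted reads per gene with featureCounts 1.5.0-p3. The treatment of multiple alignments and the strand setting are stated by no source used here. The deposited values are FPKM that the authors made from these counts, a gene length and a size per library. FPKM times length gave whole reads for 100.0% of values (within 1e-06), and the size used was 0.742 to 1.22 times the recovered reads, so a scaling per library is included. No sequence of the members was used here.

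The fits used limma 3.58.1 (R 4.3.3) with a trended prior on log2(FPKM + 0.1), over genes with a mean of at least 0.5 FPKM in the fit, and p-values were adjusted by Benjamini and Hochberg over all genes tested. Calls needed an adjusted p below 0.05 and an absolute log2 change of 1 or more. Fits of 6 libraries compared primordia and harvest fruit body with mycelia and button fruit body with primordia, and 1 fit of 18 libraries compared pileus and stipe. The code was tested on simulated data. Members and gene lists were chosen with earlier results of these data known. The genes named are the most abundant of each family, every member of families of up to 3 genes, and up to 3 largest rises and falls per comparison without overlap. Others named with values were chosen after their values were seen. Same-numbered primordia and button fruit body libraries deviated together (correlations 0.130, 0.301 and 0.130, all over the limit of 0.1) and were treated as paired in a second fit, which also called 0 members. Alternatives were other pseudocounts, filters and scalings, voom on recovered reads, a fit without trend, 1 fit of all libraries, a replicate block, and each replicate left out.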

Additional observations from a re-analysis of the deposited data

Results flagged for a closer look

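The contrast of the pileus to stipe difference between button and maturation was called for 7 members. The log2 changes were 5.7 for A00990 (GH88), 5.43 for the StringTie CBM1 gene on contig 3, 2.32 for A07722 (GH5), 2.04 for A03068 (GH3) and 1.0 for A07431 (GH3), all towards the pileus, and -4.69 for the StringTie AA9 gene on contig 8 and -1.93 for A00171 (AA9), towards the stipe. Without the libraries that stood apart A00990, the CBM1 gene, A07722, the AA9 gene on contig 8 and A00171 were at 6.85, 7.13, 2.56, -5.22 and -1.27, and A03068 and A07431 were at 2.77 and 1.14. All 7 were still called. A00990 reached the level for a test through the maturation pileus libraries alone, which favours a difference. A02659 did so too and was not called.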

How the results depend on the processing

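Of 67 fold changes of named members, 47 kept their call in every setting that could be computed and 20 lost it in 1 or more. All 67 were called in the main fit, and many were named for their size and lack of overlap. That selection favoured keeping the call and the direction. Over 1708 comparisons of a setting with the main value the call was kept in 1617 and lost in 91, and the direction never turned. A filter at 5 FPKM tests fewer genes and called 13 members for primordia against mycelia (29.5%, against 34.5% of all genes). It called 17 for harvest fruit body against mycelia (39.5% against 36.9%). For pileus against stipe it called 8 at harvest (18.2% against 30.3%) and 12 at maturation (27.3% against 23.5%). Library totals gave 22 members for pileus against stipe at harvest (34.9%, against 34.7% of all genes), and the cause was not tested. Without the 2 libraries that stood apart, an alternative chosen after seeing the data, 14 members were called in buttons (22.2%, against 29.5% of all genes). For the change from button to maturation 23 were called, and the share over all genes is given above. Leaving out 1 replicate at a time gave 21 to 23 members for primordia and 23 to 27 for harvest fruit body against mycelia, 0 to 3 for button fruit body against primordia, 4 to 13, 12 to 18 and 14 to 26 for pileus against stipe at button, harvest and maturation, 3 to 22 for the change, and 12 to 16 and 18 to 25 for maturation against button in stipe and pileus. The lowest count in buttons came without button stipe 2 or 3 (4 each), and for the change without button pileus 3 (3), and 4 each without button pileus 2, maturation pileus 1, maturation stipe 1 or maturation stipe 2. The share of all genes called moved too. In buttons it ran from 10.6% without button stipe 2 to 26.0% without button stipe 1. For harvest pileus against stipe it ran from 26.9% without harvest stipe 2 to 33.8% without harvest stipe 3. These ranges are therefore not a result about the members alone.

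With the replicate number as a block the counts were 21, 0, 27, 9, 14, 18, 7, 14 and 23 for primordia against mycelia, button fruit body against primordia, harvest fruit body against mycelia, pileus against stipe at button, harvest and maturation, the change, and maturation against button in stipe and pileus, so the pairing moved none by over 1.5 times. For the other pairs of conditions not every correlation of same-numbered libraries passed 0.1, which cannot show that they were unpaired. No source used here says whether they came from 1 culture or fruit body. Members at the lowest levels rest on few reads, such as 2 reads for A03443 in mycelia, and their fold changes move with the pseudocount.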
